A study of Mus musculus with 28 samples.

Results

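The genes described here are 44 collagens, other matrix proteins and genes of the mesenchymal cells that make matrix, taken by name from a written list. Where a gene had several probes, the brightest on average over the arrays stood for it. A probe was found for 41 of the 44, while Col6a3, Col12a1 and Fbn1 were not analysed here. Of the 41, 36 were detected on at least 3 arrays and were tested, among 11804 genes tested of 19057 with a probe. Lama4, Lamb1, Fmod, Fbln5 and Postn were each detected on fewer than 3 of the 28 arrays and are not described further.

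RNA from mouse samples was hybridised to Illumina bead arrays. The 14 adoptive-transfer tumors were plasma cell tumors that followed transfer of premalignant B cells, had the strain label C.iMyc/IL-6 with a BALB/c background, and were taken as oil granuloma tissue at ages of 105 to 158 days. The 11 spontaneous tumors had the same strain label and were taken from lymph node at 40 to 162 days. The normal samples were 3 preparations of splenic normal B cells from BALB/c mice aged 90 days. Both tumor groups thus carry a Myc insertion and an IL-6 transgene that the normal B cells lack, and the promoters that drive them are not given in the sources used here. The tumors were ground whole, so their RNA includes that of any host stroma, and tumor kind and tissue cannot be told apart. Separate animals are not stated for the samples of a group, and p-values then cover no more than the spread between these samples, which may be technical. In bulk RNA, fewer cells of a type and less RNA per cell cannot be told apart.

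Collagens are secreted as triple-helical trimers: types I, III and V build fibrils, type IV builds the sheet-like basement membrane under endothelium and around smooth muscle, and type VI forms beaded filaments. Small proteoglycans such as decorin coat the fibrils, fibulins and elastin form elastic fibres, and lysyl oxidases crosslink them. In connective tissue and in lymph node most of these proteins come from fibroblasts, reticular cells and the contractile cells of vessel walls, while B cells and plasma cells are not known as makers of fibrillar collagen.

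Between 11544 and 16827 of 45281 probes were detected in the adoptive-transfer tumors, 14472 to 16756 in the spontaneous tumors and 15633 to 16866 in the normal B cells, where detected means a detection p under 0.05. Array correlations over the tested genes ran from 0.752 to 0.984 among adoptive-transfer tumors, from 0.881 to 0.971 among spontaneous tumors and from 0.990 to 0.992 among normal B cells. The summed intensity of 8 B cell markers was 1721 to 5793 in adoptive-transfer tumors, 1918 to 9221 in spontaneous tumors and 55831 to 67608 in normal B cells, and that of 10 plasma cell markers was 16567 to 62104, 31209 to 69856 and 14330 to 14685 in the same order. All 7 tested B cell markers were lower in both tumor groups, where 16.7% and 18% of all tested genes were called lower. Ms4a1, which encodes CD20, was detected in 5 adoptive-transfer and 4 spontaneous tumors and in all 3 normal preparations. Exocrine pancreas transcripts summed to 42030 to 240835 in spontaneous tumors 2, 4, 5, 8, 10 and 11, to 10274 in adoptive-transfer tumor 1 and to 370 to 442 in normal B cells. Xist was detected in 14 of 14 adoptive-transfer tumors, 6 of 11 spontaneous tumors and 0 of 3 normal preparations, so sex is not balanced over the groups and its part in the results was not tested.

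Adoptive-transfer tumors 5, 7 and 9 stood apart in matrix transcripts. They had 13 to 14 of the 36 tested members detected, against 29 to 36 in the other 11 adoptive-transfer tumors. The median log2 intensity of the tested members was 4.87 to 5.03 in these 3 tumors and 7.19 to 8.93 in the other 11. They were the 3 lowest adoptive-transfer tumors for 22 of the 36 members. Summed intensity of 15 endothelial markers was 690 to 894 in these 3 tumors, 1896 to 11777 in the other 11 and 767 to 971 in normal B cells. Adoptive-transfer tumor 7 also had the highest macrophage marker sum (54580, against 4723 to 6379 in normal B cells), and tumor 5 the highest platelet marker sum (4908, against 212 to 244). For each role below, the adoptive-transfer differences are also given without these 3 tumors. These values are descriptions, since the 3 were picked for low matrix levels.

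**Figure D1:**
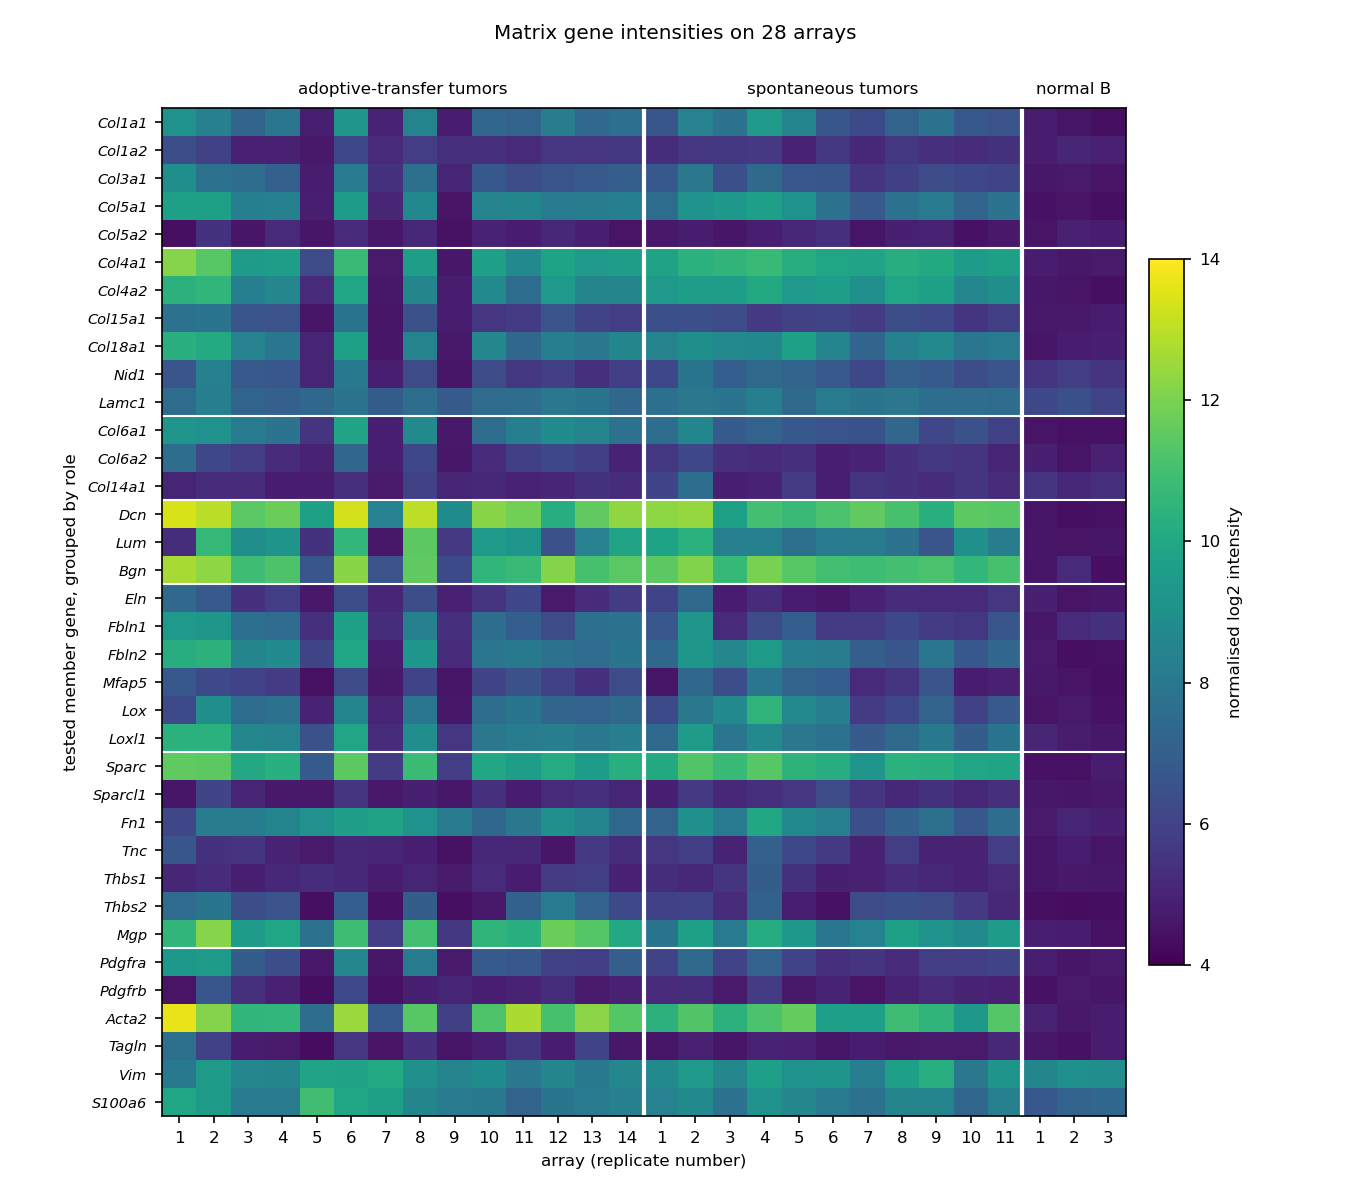
Normalised log2 intensity (colour) of the 36 tested matrix and mesenchymal genes (vertical axis, grouped by role) on 28 arrays (horizontal axis, by replicate number within the group). Most genes that are bright in the tumors are at the dark end in all 3 normal preparations, and adoptive-transfer tumors 5, 7 and 9 are dark for most members but not for Dcn, Fn1, Vim and S100a6.

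Matrix genes were higher in tumor tissue of both kinds than in splenic B cells. Of the 36 tested members 23 were higher in adoptive-transfer tumors, 0 were lower and 13 were not called at an adjusted p under 0.05 in limma, where 36.6% of all tested genes were called and 19.9% were called higher. In spontaneous tumors 22 were higher, 0 were lower and 14 were not called, where 36.5% of all tested genes were called and 18.5% were called higher. At an unadjusted p under 0.05 limma gave 27 members in adoptive-transfer and 26 in spontaneous tumors, where 44.1% and 44% of all tested genes passed. Every adoptive-transfer tumor exceeded every normal preparation for 14 members, where this held for 9.75% of all tested genes, and every spontaneous tumor did so for 25 members, where it held for 20.2%. In part these counts compare background values. Among the 14, the lowest tumors were not above background for Col1a1, Col3a1, Col6a1, Fbln2, Lum and Thbs1. Among the 25, this held for Thbs1, Thbs2, Tnc and Sparcl1. The median log2 difference of the members was 2.15 in adoptive-transfer and 1.58 in spontaneous tumors, against 0.10 and 0.08 over all tested genes. These sizes depended on the background correction: without it the members' medians were 1.01 and 0.75, and with the deposited log2 values 1.06 and 0.78, so that the folds and bounds below hold for background-corrected intensities. The calls of Lox, Pdgfra and Fbln1 in adoptive-transfer tumors and of Col3a1, Col6a1, Col15a1, Tnc and Mfap5 in spontaneous tumors were lost under at least 1 other setting that kept all arrays. The counts per role below are to be read beside the 19.9% and 18.5% of all tested genes called higher. The same 3 normal preparations enter both comparisons, so the comparisons are not independent of each other. Without adoptive-transfer tumors 5, 7 and 9, a choice made from the matrix levels themselves, 27 members were higher in the remaining adoptive-transfer tumors, where 43.4% of all tested genes were called and 23.9% were called higher. These were the 23 and, in addition, Col1a2, Col6a2, Eln and Mfap5, and the difference was larger than with all arrays for 33 of the 36 members.

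For 28 of the 36 tested members no normal preparation was above background. These 28 passed the detection filter through the tumors alone and could hardly be called lower. The counts of higher and lower members are thus not a test of direction for these 28. Their folds are given as lower bounds, where a normal array below its own lowest detected signal was raised to that signal, which was 5.06 to 5.79 on the log2 scale over all arrays. With these 28 members at their bound the median log2 difference was 1.72 in adoptive-transfer and 1.36 in spontaneous tumors. Differences written with ± are log2 differences and their standard errors (SE) from the model. Intensities are compared between samples for 1 probe at a time, since the brightness of different probes is not comparable. Folds and bounds hold for the probe used, and further probes of several members gave smaller differences. The mean of all detected probes gave 3.87 and 4.52 for Sparc in adoptive-transfer and spontaneous tumors. It gave 3.03 and 3.10 for Lum and 2.22 and 2.05 for Fbln2.

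**Figure D2:**
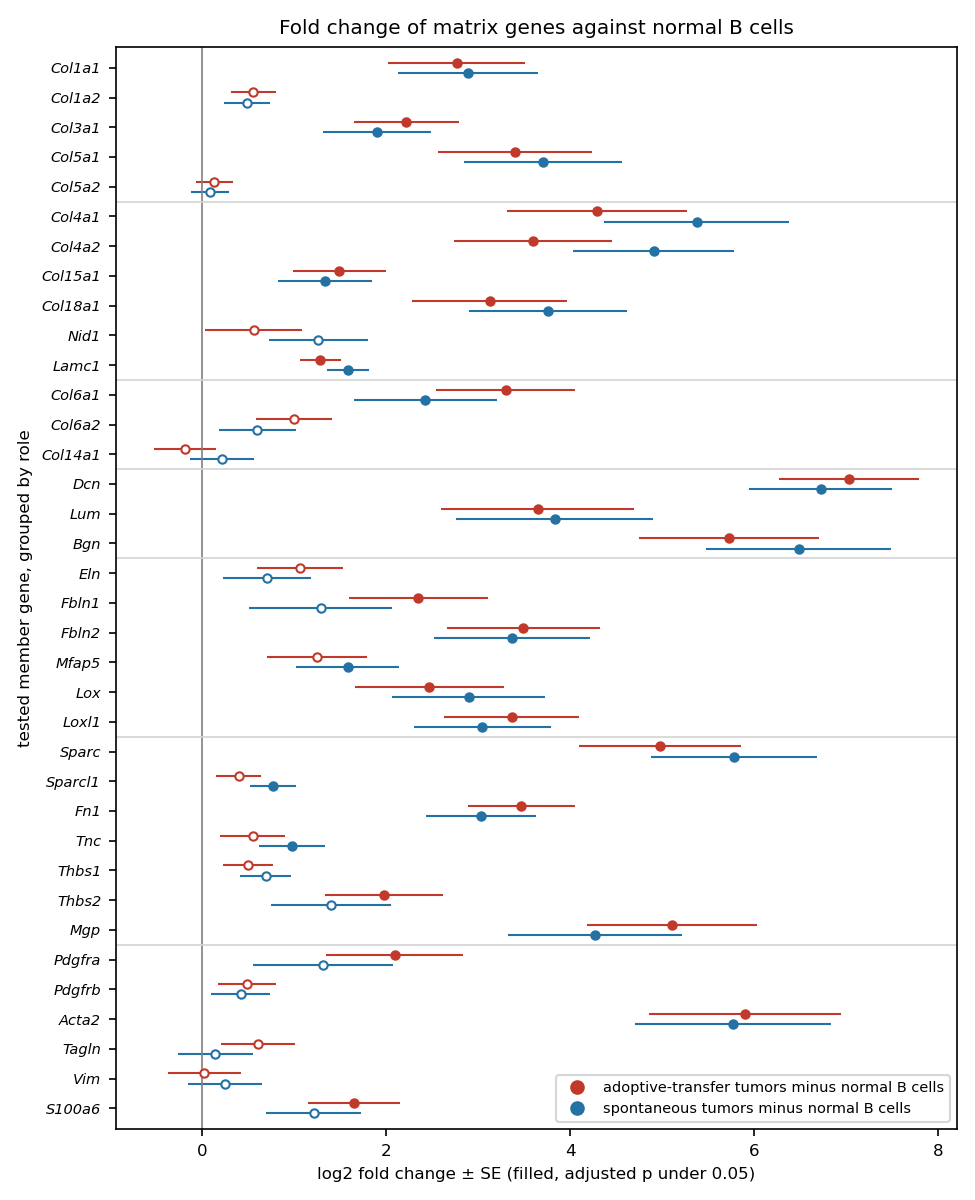
Log2 fold change with its standard error (horizontal axis) for each of the 36 tested members (vertical axis, grouped by role) in adoptive-transfer (red) and spontaneous (blue) tumors against normal B cells. Filled points passed an adjusted p under 0.05, and no member passed below 0. Dcn lies at 7.03 in adoptive-transfer and 6.72 in spontaneous tumors, and 28 members are set against normal preparations that were not above background.

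Among the fibrillar collagens, 3 of 5 tested members were higher in adoptive-transfer tumors and 3 of 5 in spontaneous tumors. Col5a1 encodes a chain of type V collagen, which starts fibrils and sets their width. Its log2 intensity was 4.53, 8.36 and 9.68 (lowest, median and highest) over the adoptive-transfer tumors, 6.80, 7.79 and 9.65 over the spontaneous tumors and 4.50, 4.53 and 4.42 in the 3 normal preparations. All spontaneous tumors and 13 of 14 adoptive-transfer tumors lay above every normal preparation. The log2 difference was 3.40 ± 0.83 in adoptive-transfer tumors (at least 6.79-fold, adjusted p = 0.00177) and 3.70 ± 0.85 in spontaneous tumors (at least 8.38-fold, adjusted p = 0.000989).

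Col1a1, the gene of the major chain of type I collagen, had 4.81, 7.53 and 9.21 over the adoptive-transfer tumors, 6.27, 7.18 and 9.41 over the spontaneous tumors and 4.74, 4.57 and 4.42 in normal B cells. The groups did not overlap, although adoptive-transfer tumors 5, 7 and 9 (4.81 to 4.95) were not above background for Col1a1. Col1a1 was at least 4.67-fold higher in adoptive-transfer tumors (2.76 ± 0.75, adjusted p = 0.00407) and at least 5.08-fold higher in spontaneous tumors (2.89 ± 0.76, adjusted p = 0.00341). Col3a1 encodes type III collagen, the main component of reticular fibres in lymphoid organs. It measured 4.82, 6.90 and 8.97 over the adoptive-transfer tumors, 5.56, 6.45 and 7.97 over the spontaneous tumors and 4.66, 4.74 and 4.54 in normal B cells, again without overlap. Adoptive-transfer tumors 5 and 9 were not above background for Col3a1. The difference was 2.22 ± 0.57 in adoptive-transfer tumors (at least 3.35-fold, adjusted p = 0.00282) and 1.90 ± 0.59 in spontaneous tumors (at least 2.69-fold, adjusted p = 0.0112). Without normal preparation 3 the spontaneous call for Col3a1 was lost (adjusted p = 0.0507).

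The partner chains Col1a2 and Col5a2 were not called with all arrays. Col1a2, the second chain of type I collagen, ranged from 4.68 to 6.40 in adoptive-transfer and 4.97 to 5.65 in spontaneous tumors, and its differences were 0.55 ± 0.24 (adjusted p = 0.077) and 0.49 ± 0.25 (adjusted p = 0.13). Col5a2 was detected in 4 adoptive-transfer and 2 spontaneous tumors only, with differences of 0.13 ± 0.20 and 0.08 ± 0.21. None of the 4 other Col5a2 probes was detected on any array, so a change of this chain was not detectable with these probes. Without adoptive-transfer tumors 5, 7 and 9 the adoptive-transfer differences were 3.44 ± 0.51 for Col1a1, 2.70 ± 0.43 for Col3a1 and 4.24 ± 0.47 for Col5a1, and Col1a2 was called (0.66 ± 0.23, adjusted p = 0.021).

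Basement membrane genes had 5 of 6 tested members higher in adoptive-transfer and 5 of 6 in spontaneous tumors. Col4a1 and Col4a2 encode the chains of the type IV collagen found in nearly all basement membranes, and are transcribed in opposite directions from a shared region. The windows from 250 bases before to 50 bases after each RefSeq start (GRCm38.p6) are shown because both genes moved together over the tumors: Col4a1 at chr8:11312777-11313076 on the minus strand and Col4a2 at chr8:11312555-11312854 on the plus strand, sharing 78 bases. Capitals mark CCAAT and GGGCGG on either strand, written as ATTGG and CCGCCC where they lie on the other strand.
Col4a1: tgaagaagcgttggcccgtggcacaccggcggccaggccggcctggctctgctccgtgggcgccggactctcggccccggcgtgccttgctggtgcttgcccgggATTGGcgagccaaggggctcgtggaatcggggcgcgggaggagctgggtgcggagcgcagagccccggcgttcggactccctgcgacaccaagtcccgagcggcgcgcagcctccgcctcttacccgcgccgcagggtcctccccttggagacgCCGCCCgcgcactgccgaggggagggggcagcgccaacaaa
Col4a2: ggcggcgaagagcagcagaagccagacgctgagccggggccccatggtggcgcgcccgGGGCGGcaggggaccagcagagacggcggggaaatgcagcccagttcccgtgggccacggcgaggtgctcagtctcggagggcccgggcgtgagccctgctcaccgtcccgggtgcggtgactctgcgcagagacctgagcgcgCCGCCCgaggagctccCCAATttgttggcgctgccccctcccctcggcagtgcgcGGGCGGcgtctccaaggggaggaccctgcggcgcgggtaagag
Each window holds 1 CCAAT, and GGGCGG occurs 1 time in the Col4a1 window and 3 times in the Col4a2 window. A RefSeq window was matched for 26 of the 44 listed genes, 32 windows in all. CCAAT was in 12 of these 32 windows (37.5%) and in 37.4% of the 32851 windows of all genes. GGGCGG was in 16 of 32 (50%) and in 35.7% of all windows, and TATAAA in 6 of 32 (18.75%) and in 13.6%. These are matches of letters and say nothing of binding in these samples.

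Col4a1 intensity was 4.66, 9.57 and 12.18 over the adoptive-transfer tumors, 9.52, 10.07 and 10.74 over the spontaneous tumors and 4.75, 4.63 and 4.74 in normal B cells. The spontaneous tumors were uniformly high, while adoptive-transfer tumors 7 (4.72) and 9 (4.66) lay among the normal preparations and tumor 5 between (6.28). The difference was 4.29 ± 0.98 in adoptive-transfer tumors (at least 14.7-fold, adjusted p = 0.000892) and 5.38 ± 1.00 in spontaneous tumors (at least 31.2-fold, adjusted p = 9.24e-05). Col4a2 had 4.66, 8.58 and 10.57 over the adoptive-transfer tumors, 8.61, 9.55 and 10.06 over the spontaneous tumors and 4.66, 4.53 and 4.41 in normal B cells. Its lowest spontaneous tumor exceeded its median adoptive-transfer tumor. Col4a2 was at least 8.05-fold higher in adoptive-transfer tumors (3.60 ± 0.85, adjusted p = 0.00129) and at least 20.0-fold higher in spontaneous tumors (4.91 ± 0.88, adjusted p = 5.13e-05).

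Col18a1 encodes a basement membrane collagen whose tail is released as endostatin. It measured 4.59, 8.35 and 10.36 over the adoptive-transfer tumors, 7.26, 8.50 and 9.73 over the spontaneous tumors and 4.57, 4.79 and 4.86 in normal B cells, with adoptive-transfer tumors 7 and 9 inside or near the normal range. It was at least 6.70-fold higher in adoptive-transfer tumors (3.12 ± 0.84, adjusted p = 0.00406) and at least 10.4-fold higher in spontaneous tumors (3.76 ± 0.86, adjusted p = 0.000948). With the mean of all its detected probes Col18a1 was at 1.71 and 2.00, with the calls kept. Lamc1, the gamma chain shared by most laminins, was detected on all 28 arrays and so has measured folds. It was 2.43-fold higher in adoptive-transfer tumors (1.28 ± 0.22, adjusted p = 3.48e-05) and 3.00-fold higher in spontaneous tumors (1.59 ± 0.23, adjusted p = 2.31e-06), without overlap with the normal preparations. Col15a1, another endostatin-type collagen, was called in adoptive-transfer (1.49 ± 0.50, adjusted p = 0.0205) and spontaneous tumors (1.33 ± 0.52, adjusted p = 0.0429). Both calls were lost without any 1 of the normal preparations (adjusted p up to 0.0734 in adoptive-transfer and 0.119 in spontaneous tumors), and the spontaneous call also without any 1 of spontaneous tumors 1, 2, 3, 6, 8 and 9. Nid1, which encodes the linker nidogen, was not called, with 0.56 ± 0.52 (adjusted p = 0.445) in adoptive-transfer and 1.26 ± 0.54 (adjusted p = 0.0672) in spontaneous tumors, although every spontaneous tumor exceeded every normal preparation. A second Nid1 probe, detected on 12 arrays, pointed the other way (-0.60 in adoptive-transfer and -0.71 in spontaneous tumors).

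Most tested endothelial markers were also higher in both tumor kinds. Adoptive-transfer tumors had 9 of 14 tested endothelial markers higher and 1 lower, where 19.9% of all tested genes were called higher and 16.7% lower. In spontaneous tumors 12 of these markers were higher and 1 lower, where 18.5% of all tested genes were called higher and 18% lower. The summed intensity of 15 endothelial markers was 690 to 11777 in adoptive-transfer and 3668 to 5458 in spontaneous tumors. In normal B cells it was 767 to 971. Cdh5, which encodes the endothelial cadherin, was detected in 10 of 14 adoptive-transfer tumors, 11 of 11 spontaneous tumors and 0 of 3 normal preparations. Their part in the basement membrane differences was not tested. With adoptive-transfer tumors 5, 7 and 9 left out, the basement membrane differences in the remaining 11 were 5.32 ± 0.45 for Col4a1, 4.48 ± 0.43 for Col4a2, 3.97 ± 0.47 for Col18a1, 1.91 ± 0.38 for Col15a1 and 1.40 ± 0.20 for Lamc1, and Nid1 was not called (0.92 ± 0.45).

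Of the beaded and fibril-associated collagens, 1 of 3 tested members was higher in each tumor kind. Col6a1 encodes a chain of type VI collagen. Its intensity was 4.70, 8.21 and 9.82 over the adoptive-transfer tumors, 5.93, 6.74 and 8.58 over the spontaneous tumors and 4.53, 4.46 and 4.44 in normal B cells, without overlap. Adoptive-transfer tumors 7 and 9 were not above background for Col6a1. The difference was 3.30 ± 0.76 in adoptive-transfer tumors (at least 6.31-fold, adjusted p = 0.000917) and 2.43 ± 0.77 in spontaneous tumors (at least 3.45-fold, adjusted p = 0.0142). The spontaneous call was lost without normal preparation 2 (adjusted p = 0.0528) or 3 (adjusted p = 0.0535).

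Col6a2, the partner chain, had 4.63, 5.86 and 7.60 over the adoptive-transfer tumors, 4.86, 5.40 and 6.16 over the spontaneous tumors and 4.90, 4.57 and 4.91 in normal B cells. Its groups overlapped, and it was not called in adoptive-transfer (1.00 ± 0.41, adjusted p = 0.0599) or spontaneous tumors (0.60 ± 0.42, adjusted p = 0.295). Col14a1, a collagen on the surface of fibrils, had 4.73, 5.10 and 5.97 over the adoptive-transfer tumors, 4.82, 5.41 and 7.61 over the spontaneous tumors and 5.55, 5.11 and 5.37 in normal B cells, where 2 of 3 preparations were above background. Its groups overlapped widely, with 1 spontaneous tumor, number 2, well above the rest. The differences were -0.19 ± 0.34 (adjusted p = 0.712) and 0.21 ± 0.35 (adjusted p = 0.69). Over the 11 adoptive-transfer tumors other than 5, 7 and 9, the difference was 4.05 ± 0.43 for Col6a1, Col6a2 was called (1.25 ± 0.37, adjusted p = 0.00748) and Col14a1 was not (-0.11 ± 0.35).

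All 3 tested small leucine-rich proteoglycans were higher in both tumor kinds. Decorin (Dcn) binds collagen fibrils and regulates their spacing. Dcn intensity was 8.45, 11.82 and 13.38 over the adoptive-transfer tumors, 9.68, 11.13 and 12.40 over the spontaneous tumors and 4.55, 4.42 and 4.45 in normal B cells. It was detected in all 25 tumors, including adoptive-transfer tumors 5, 7 and 9, and in none of the normal preparations. Dcn was at least 83.9-fold higher in adoptive-transfer tumors (7.03 ± 0.76, adjusted p = 2.03e-08) and at least 67.7-fold higher in spontaneous tumors (6.72 ± 0.78, adjusted p = 6.77e-08).

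Biglycan (Bgn), a close relative of decorin encoded on the X chromosome, had 6.24, 11.16 and 12.69 over the adoptive-transfer tumors, 10.63, 11.10 and 12.09 over the spontaneous tumors and 4.56, 5.22 and 4.41 in normal B cells. All tumors lay above the normal preparations, of which 1 was above background, and the spontaneous tumors were tightly grouped. The fold was 53.0-fold in adoptive-transfer tumors (5.73 ± 0.98, adjusted p = 3.08e-05) and 89.6-fold in spontaneous tumors (6.49 ± 1.01, adjusted p = 7.62e-06). Lumican (Lum), which controls fibril diameter, measured 4.64, 9.07 and 11.49 over the adoptive-transfer tumors, 6.65, 8.20 and 10.38 over the spontaneous tumors and 4.61, 4.53 and 4.62 in normal B cells. Adoptive-transfer tumor 1, the highest of its group for Dcn and Bgn, had one of the lowest Lum values (5.29). This value was not above background, on the array with the fewest probes detected (11544). Lum was at least 8.67-fold higher in adoptive-transfer tumors (3.65 ± 1.05, adjusted p = 0.00684) and at least 9.84-fold higher in spontaneous tumors (3.83 ± 1.08, adjusted p = 0.00553). Leaving out adoptive-transfer tumors 5, 7 and 9 gave 7.72 ± 0.51 for Dcn, 6.81 ± 0.37 for Bgn and 4.46 ± 0.85 for Lum. Without background correction Dcn was at 4.67 in adoptive-transfer and 4.34 in spontaneous tumors, and with the mean of all its detected probes at 3.51 and 3.30, with the call kept.

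**Figure D3:**
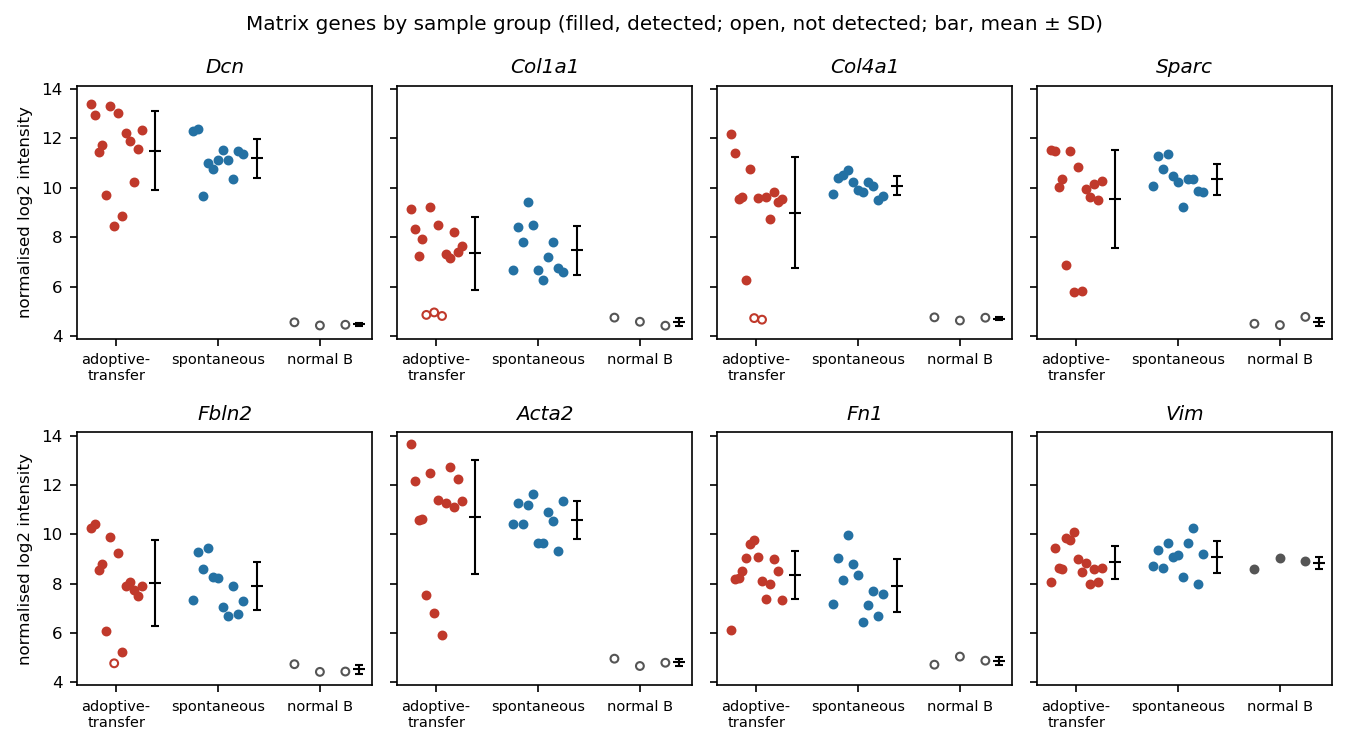
Normalised log2 intensity (vertical axis) of 8 members on every array of 14 adoptive-transfer tumors (red), 11 spontaneous tumors (blue) and 3 normal B cell preparations (grey), with mean and SD. Open points were not detected. Vim alone of the 8 had the 3 groups at a similar level (8.86 ± 0.69, 9.09 ± 0.66 and 8.58 to 9.03).

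Of the elastic fibre and crosslinking genes, 4 of 6 tested members were higher in each tumor kind. Loxl1 encodes a lysyl oxidase that crosslinks elastin. Its intensity was 5.27, 8.27 and 10.39 over the adoptive-transfer tumors, 6.87, 7.91 and 9.52 over the spontaneous tumors and 5.08, 4.75 and 4.66 in normal B cells, without overlap. Loxl1 was 10.3-fold higher in adoptive-transfer tumors (3.36 ± 0.73, adjusted p = 0.000526) and 8.26-fold higher in spontaneous tumors (3.05 ± 0.75, adjusted p = 0.00181). Fibulin 2 (Fbln2), a glycoprotein of elastic fibres and vessel walls, measured 4.78, 7.98 and 10.41 over the adoptive-transfer tumors, 6.67, 7.91 and 9.46 over the spontaneous tumors and 4.74, 4.43 and 4.44 in normal B cells. The groups did not overlap, but the lowest tumor, adoptive-transfer tumor 7, was not above background and came close to the normal level. The difference was 3.49 ± 0.83 in adoptive-transfer tumors (at least 7.51-fold, adjusted p = 0.00129) and 3.36 ± 0.85 in spontaneous tumors (at least 6.88-fold, adjusted p = 0.00228).

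Lox, the founding lysyl oxidase, had 4.63, 7.50 and 8.99 over the adoptive-transfer tumors, 5.73, 7.20 and 10.49 over the spontaneous tumors and 4.55, 4.73 and 4.49 in normal B cells. Spontaneous tumor 4 was the brightest of all arrays, and 1 adoptive-transfer tumor, number 9, lay within the normal range. The difference was 2.47 ± 0.81 in adoptive-transfer tumors (at least 3.84-fold, adjusted p = 0.017) and 2.90 ± 0.83 in spontaneous tumors (at least 5.16-fold, adjusted p = 0.00658). The adoptive-transfer call was lost without any 1 of the normal preparations (adjusted p = 0.0545 to 0.0667). Fibulin 1 (Fbln1) was called in adoptive-transfer tumors (2.35 ± 0.76, adjusted p = 0.015) and not in spontaneous tumors (1.29 ± 0.77, adjusted p = 0.209), and the call was lost without normal preparation 1 (adjusted p = 0.083). Mfap5, which encodes a microfibril protein, was not called in adoptive-transfer tumors (1.25 ± 0.55, adjusted p = 0.0755) but was in spontaneous tumors (1.58 ± 0.56, adjusted p = 0.0263), and this call was lost without any 1 of the normal preparations (adjusted p up to 0.0974). Elastin (Eln) was not called in either (1.06 ± 0.47 and 0.70 ± 0.48). In adoptive-transfer tumors other than 5, 7 and 9 the differences were 4.02 ± 0.49 for Loxl1, 4.22 ± 0.59 for Fbln2, 3.07 ± 0.68 for Lox and 2.92 ± 0.62 for Fbln1, and Mfap5 (1.58 ± 0.50, adjusted p = 0.0122) and Eln (1.29 ± 0.45, adjusted p = 0.0228) were called too.

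Matricellular and adhesive genes had 4 of 7 tested members higher in adoptive-transfer and 5 of 7 in spontaneous tumors. Sparc, a collagen-binding protein secreted during matrix assembly, had 5.78, 10.10 and 11.54 over the adoptive-transfer tumors, 9.23, 10.35 and 11.39 over the spontaneous tumors and 4.49, 4.44 and 4.77 in normal B cells. It was detected in every tumor and in none of the normal preparations. Sparc was at least 21.6-fold higher in adoptive-transfer tumors (4.98 ± 0.88, adjusted p = 4.47e-05) and at least 37.6-fold higher in spontaneous tumors (5.78 ± 0.90, adjusted p = 8.22e-06). Mgp, an inhibitor of calcification made by vascular smooth muscle and cartilage, measured 5.61, 10.44 and 12.18 over the adoptive-transfer tumors, 7.87, 9.08 and 10.19 over the spontaneous tumors and 4.86, 4.77 and 4.47 in normal B cells. All tumors lay above all normal preparations, with 8 of 14 adoptive-transfer tumors above every spontaneous tumor. The difference was 5.11 ± 0.93 in adoptive-transfer tumors (at least 25.7-fold, adjusted p = 6.34e-05) and 4.27 ± 0.95 in spontaneous tumors (at least 14.4-fold, adjusted p = 0.000678).

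Fibronectin (Fn1), the adhesive glycoprotein that integrins bind, did not follow the collagens over the adoptive-transfer tumors. Its intensity was 6.14, 8.36 and 9.76 over the adoptive-transfer tumors, 6.44, 7.70 and 9.98 over the spontaneous tumors and 4.72, 5.05 and 4.88 in normal B cells. Adoptive-transfer tumors 5, 7 and 9, low for the collagens, had 9.05, 9.76 and 8.11, tumor 7 being the highest of the 14. Tumor 1, bright for the collagens, was the lowest, near the lowest detected signal of its array (5.79). Macrophages also express fibronectin, and the macrophage marker sums of tumors 5, 7 and 9 were 9084, 54580 and 11739, with 12862 in tumor 1, and their part in this was not tested. Fn1 was at least 9.41-fold higher in adoptive-transfer tumors (3.47 ± 0.59, adjusted p = 2.46e-05) and at least 6.94-fold higher in spontaneous tumors (3.03 ± 0.60, adjusted p = 0.000181). With the mean of all its detected probes Fn1 was at 1.37 and 1.20, with the calls kept.

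Of the other matricellular genes, none was called in both tumor kinds. Thrombospondin 2 (Thbs2), an inhibitor of vessel growth, was called in adoptive-transfer (1.97 ± 0.64, adjusted p = 0.016) and not in spontaneous tumors (1.40 ± 0.66, adjusted p = 0.0989). Tenascin C (Tnc), a protein of remodelling stroma, was not called in adoptive-transfer (0.55 ± 0.35, adjusted p = 0.243) but was in spontaneous tumors (0.97 ± 0.36, adjusted p = 0.0341). Sparcl1, a relative of Sparc, was likewise not called in adoptive-transfer (0.39 ± 0.24, adjusted p = 0.222) but was in spontaneous tumors (0.77 ± 0.25, adjusted p = 0.0162). Each of these 3 calls was lost without any 1 of the normal preparations (adjusted p up to 0.0617 for Thbs2, 0.112 for Tnc and 0.0629 for Sparcl1). Thbs1, an activator of latent TGF-beta, was not called (0.50 ± 0.28 and 0.69 ± 0.28), although every tumor of both kinds lay above the normal preparations. Thbs1 was detected in 5 adoptive-transfer and 7 spontaneous tumors only, so for the other tumors this compares background values. The adoptive-transfer differences without tumors 5, 7 and 9 were 5.91 ± 0.41 for Sparc, 6.04 ± 0.47 for Mgp, 3.30 ± 0.59 for Fn1 and 2.49 ± 0.50 for Thbs2, and Tnc, Sparcl1 and Thbs1 were still not called.

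Of the genes of the mesenchymal cells themselves, 3 of 6 were higher in adoptive-transfer and 1 of 6 in spontaneous tumors. The shares over all tested genes were 19.9% and 18.5%, so the spontaneous count lies near its share. Acta2 encodes the actin of smooth muscle cells and myofibroblasts. It measured 5.91, 11.30 and 13.66 over the adoptive-transfer tumors, 9.32, 10.54 and 11.63 over the spontaneous tumors and 4.96, 4.67 and 4.80 in normal B cells, without overlap. Acta2 was at least 48.1-fold higher in adoptive-transfer tumors (5.90 ± 1.04, adjusted p = 4.33e-05) and at least 44.0-fold higher in spontaneous tumors (5.77 ± 1.06, adjusted p = 7.9e-05). These bounds hold for the brightest probe. With the mean of all its detected probes Acta2 was at 3.57 and 3.43, with the calls kept. Tagln, another smooth muscle gene, was detected in 6 adoptive-transfer tumors and 1 spontaneous tumor and was not called (0.61 ± 0.40 and 0.14 ± 0.41). Pdgfra, the receptor on fibroblast precursors, was called in adoptive-transfer (2.09 ± 0.75, adjusted p = 0.0277) and not in spontaneous tumors (1.32 ± 0.76, adjusted p = 0.19), and the call was lost without any 1 of the normal preparations (adjusted p = 0.075 to 0.0991). A second Pdgfra probe, detected on 10 arrays, was at -0.003 and 0.01. The receptor of pericytes, Pdgfrb, was detected in 4 tumors of each kind and was not called (0.49 ± 0.32 and 0.42 ± 0.32).

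S100a6, a calcium-binding protein of many growing cell types, had 7.20, 8.24 and 10.93 over the adoptive-transfer tumors, 7.30, 8.42 and 9.09 over the spontaneous tumors and 6.76, 7.19 and 7.33 in normal B cells. The groups overlapped at their lower ends, and adoptive-transfer tumor 5, low for collagens, was the highest. S100a6 was 3.14-fold higher in adoptive-transfer tumors (1.65 ± 0.50, adjusted p = 0.0102), a call lost without normal preparation 1 (adjusted p = 0.0674), and was not called in spontaneous tumors (1.21 ± 0.51, adjusted p = 0.066). Vimentin (Vim), the intermediate filament of mesenchymal cells and also of lymphocytes, was detected on all 28 arrays. Its intensity was 8.00, 8.64 and 10.10 over the adoptive-transfer tumors, 7.99, 9.16 and 10.27 over the spontaneous tumors and 8.58, 9.03 and 8.92 in normal B cells, with the normal preparations in the middle of both tumor ranges. The difference was 0.02 ± 0.40 in adoptive-transfer tumors (95% interval -0.79 to 0.83) and 0.25 ± 0.41 in spontaneous tumors (95% interval -0.58 to 1.08). Among the mesenchymal genes, leaving out adoptive-transfer tumors 5, 7 and 9 gave 6.98 ± 0.51 for Acta2, 2.67 ± 0.60 for Pdgfra and 1.42 ± 0.43 for S100a6, while Vim (-0.15 ± 0.36), Tagln and Pdgfrb were still not called.
The Vim window at chr2:13574061-13574360 on the plus strand is shown as that of a member detected on every array, with the same capitals. It holds 2 CCAAT matches, no GGGCGG and 1 TATAAA, which is left in lower case.
Vim: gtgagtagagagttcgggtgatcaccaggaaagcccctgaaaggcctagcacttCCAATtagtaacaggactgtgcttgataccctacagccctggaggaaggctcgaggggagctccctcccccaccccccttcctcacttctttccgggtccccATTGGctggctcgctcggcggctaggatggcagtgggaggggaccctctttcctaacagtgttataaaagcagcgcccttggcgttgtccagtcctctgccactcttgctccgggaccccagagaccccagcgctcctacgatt

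Markers of other stromal cells changed in part. Adoptive-transfer tumors had 5 of 13 tested fibroblast markers outside the members higher and 1 lower, spontaneous tumors 4 higher and 1 lower, with a summed intensity of 793 to 6401, 1060 to 3430 and, in normal B cells, 502 to 524. Of 11 tested smooth muscle and pericyte markers, 6 were higher in adoptive-transfer and 3 in spontaneous tumors, with sums of 332 to 7569, 611 to 1469 and, in normal B cells, 317 to 356. Mesothelial markers had 3 of 5 higher in adoptive-transfer and 1 of 5 in spontaneous tumors, lymph node stroma markers 1 and 2 of 7, and adipocyte and platelet markers none of 4 and none of 5. Adoptive-transfer tumors had 3 of 13 macrophage markers higher and 1 lower, spontaneous tumors 3 higher and 2 lower, and 1 of 4 T cell markers was lower in each. Among all tested genes 19.9% were called higher and 16.7% lower in adoptive-transfer tumors. In spontaneous tumors the shares were 18.5% and 18%. The counts of higher macrophage markers lie near these shares. The part of these cells in the member differences was not tested.

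No member was called between the tumor kinds. In limma 0 of 36 members passed an adjusted p under 0.05, where 2.87% of all tested genes did (1.44% higher and 1.43% lower), and 5 passed at an unadjusted p under 0.05, where 16.9% of all tested genes did. No member separated the tumor kinds without overlap in either direction, where 0.00847% of all tested genes did in each. The median difference of the members, adoptive-transfer minus spontaneous, was 0.05, against 0.03 over all tested genes. The 5 were Col4a2 (-1.31 ± 0.54, 95% interval -2.42 to -0.20, adjusted p = 0.204), Sparcl1 (-0.37 ± 0.15), Lamc1 (-0.30 ± 0.14), Nid1 (-0.70 ± 0.33) and Fbln1 (1.06 ± 0.48, adjusted p = 0.253). For Col1a1 the difference was -0.12 ± 0.47 (95% interval -1.09 to 0.84), for Col4a1 -1.09 ± 0.62 (-2.36 to 0.18) and for Col6a1 0.87 ± 0.48 (-0.11 to 1.85). These intervals are wide, and a p above the threshold does not show that the kinds were alike.

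The comparison of the kinds depended on adoptive-transfer tumors 5, 7 and 9. Without them, 6 members were called higher in the remaining 11 adoptive-transfer tumors than in the spontaneous tumors, where 5.82% of all tested genes were called and 3.88% were called higher. These were Mgp (1.77 ± 0.31), Fbln1 (1.63 ± 0.41), Col6a1 (1.62 ± 0.28), Pdgfra (1.36 ± 0.39), Acta2 (1.21 ± 0.33) and Thbs2 (1.09 ± 0.33). The differences of the type IV chains shrank to -0.06 ± 0.29 for Col4a1 and -0.42 ± 0.28 for Col4a2. The 3 tumors were picked for low matrix levels, which raises the adoptive-transfer means by construction, so these values are a description and not a test.

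Variation between single tumors was large for matrix genes. The median SD of the 36 members was 1.24 log2 units over the 14 adoptive-transfer tumors, against 0.50 over all tested genes, and 30 members lay above that median. Over the 11 spontaneous tumors it was 0.67, against 0.32, with 32 members above. In the normal B cells it was 0.15 for the members and 0.15 for all tested genes. Above the 90th percentile of SD over all tested genes lay 22 members in adoptive-transfer and 20 in spontaneous tumors. Without adoptive-transfer tumors 5, 7 and 9 the median SD of the members in the remaining 11 was 0.79. The SD over all tested genes in these 11 is not given here, and the 0.50 covers all 14.

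The most variable members differed by kind. In adoptive-transfer tumors they were Acta2 (SD 2.32), Lum (2.28), Col4a1 (2.26) and Bgn (2.24), which in spontaneous tumors had SDs of 0.78, 1.02, 0.38 and 0.48. Without adoptive-transfer tumors 5, 7 and 9 their adoptive-transfer SDs were 0.96, 1.81, 1.01 and 0.71. Lox, Mfap5, Fbln1 and Fn1 were the most variable in spontaneous tumors, with SDs of 1.34, 0.73, 1.47 and 0.96 in adoptive-transfer tumors, against 1.50, 1.17, 1.08 and 1.07 in spontaneous tumors. Over the other 11 adoptive-transfer tumors these SDs were 0.72, 0.36, 1.07 and 0.96. The differences in SD were not tested. Adoptive-transfer tumor 1 was the highest of its group for 14 members and tumor 2 for 11, and spontaneous tumor 4 was the highest of its group for 17 members and tumor 2 for 13. Adoptive-transfer tumor 1 also had the fewest probes detected of all arrays (11544) and the highest fibroblast (6401) and smooth muscle (7569) marker sums, and spontaneous tumors 2 and 4 had exocrine pancreas sums of 149492 and 95148. Their part in the member levels was not tested.

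**Figure D4:**
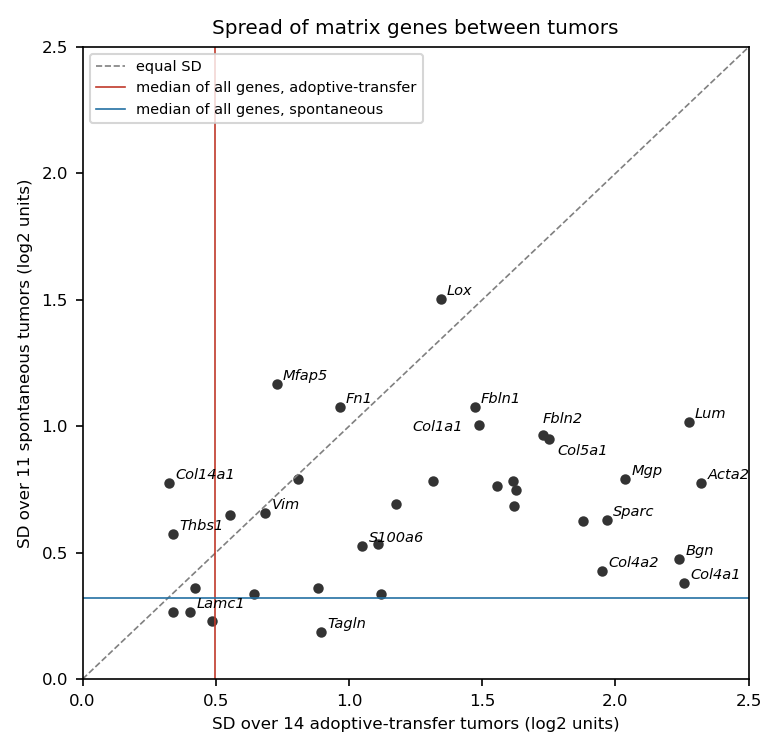
SD of each tested member over 14 adoptive-transfer tumors (horizontal axis, log2 units) and over 11 spontaneous tumors (vertical axis, log2 units), with lines at the median SD of all tested genes (0.50 and 0.32) and at equal SD. Col4a1 and Bgn combine a high SD in adoptive-transfer tumors with a low one in spontaneous tumors, and Lox, Mfap5 and Fn1 lie above the line of equal SD.

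Members that build 1 structure or lie in 1 pathway were set against each other over tumors, as 10 pairs in 2 tumor kinds, 20 relations in all. The plan took all 14 adoptive-transfer tumors, and Pearson's r then passed in 7 adoptive-transfer and 7 spontaneous relations. Adoptive-transfer tumors 5, 7 and 9 form a cluster of their own, so they were left out after the data were seen. Values refer to the other 11 adoptive-transfer and the 11 spontaneous tumors, with permutation p-values adjusted over the 20. Pearson's r passed there in 5 adoptive-transfer and 6 spontaneous relations. Dcn with Lum and Pdgfra with Pdgfrb in adoptive-transfer tumors passed only as planned, as did Acta2 with Tagln in spontaneous tumors. Col4a1 and Col4a2, whose windows overlap, had the closest relation in adoptive-transfer tumors, with r = 0.948 (permutation p = 3e-05, adjusted 0.0003) and rho = 0.973 (permutation p = 2e-05). Leaving out the 2 tumors farthest from the median of Col4a1 gave r = 0.953. In spontaneous tumors r was 0.827 (permutation p = 0.00166, adjusted 0.00664) and rho 0.864 (permutation p = 0.00112), with r = 0.652 without the 2 farthest, which no longer passed.

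Type VI chains were related in adoptive-transfer tumors (r = 0.91, permutation p = 2e-05; rho = 0.964, permutation p = 1e-05; r = 0.866 without the 2 farthest). In spontaneous tumors the relation rested on 2 tumors, with r = 0.705 (permutation p = 0.0178), rho = 0.373 (permutation p = 0.258) and r = 0.176 without tumors 2 and 1. Col1a1 and Col3a1, partners in mixed fibrils, had r = 0.79 in adoptive-transfer tumors (permutation p = 0.00349; rho = 0.755, permutation p = 0.00956) and r = 0.719 in spontaneous tumors (permutation p = 0.0121; rho = 0.636, permutation p = 0.0408). Without the 2 farthest tumors r was 0.51 and 0.672, and neither passed.

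Decorin and lumican moved together in spontaneous tumors, with r = 0.741 (permutation p = 0.0104), rho = 0.655 (permutation p = 0.0341) and r = 0.924 without the 2 farthest. In adoptive-transfer tumors r was 0.353 (permutation p = 0.285; rho = 0.464, permutation p = 0.155) and 0.921 without tumors 12 and 1. Fibronectin and Col1a1 had r = 0.872 in spontaneous tumors (permutation p = 0.00054; rho = 0.782, permutation p = 0.00668; r = 0.704 without the 2 farthest, which no longer passed). In adoptive-transfer tumors r was 0.107 (permutation p = 0.758; rho = 0.355, permutation p = 0.283), and r = 0.624 without tumors 1 and 6. Whether these relations differ between the tumor kinds was not tested.

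Further pairs passed in adoptive-transfer tumors. They were Acta2 with Tagln (r = 0.886, permutation p = 0.00044; rho = 0.8, permutation p = 0.00458; r = 0.86 without the 2 farthest) and Col1a1 with Col1a2 (r = 0.814, permutation p = 0.00216; rho = 0.791, permutation p = 0.00529; r = 0.588 without the 2 farthest, which no longer passed). Tagln was detected in 6 adoptive-transfer tumors, so its other values in the relation with Acta2 lie at background. In spontaneous tumors Pdgfra with Pdgfrb rested on tumors 2 and 4 (r = 0.675, permutation p = 0.0251; rho = 0.455, permutation p = 0.165; r = 0.0801 without them). Points of 1 tumor kind share tissue and array type.

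**Figure D5:**
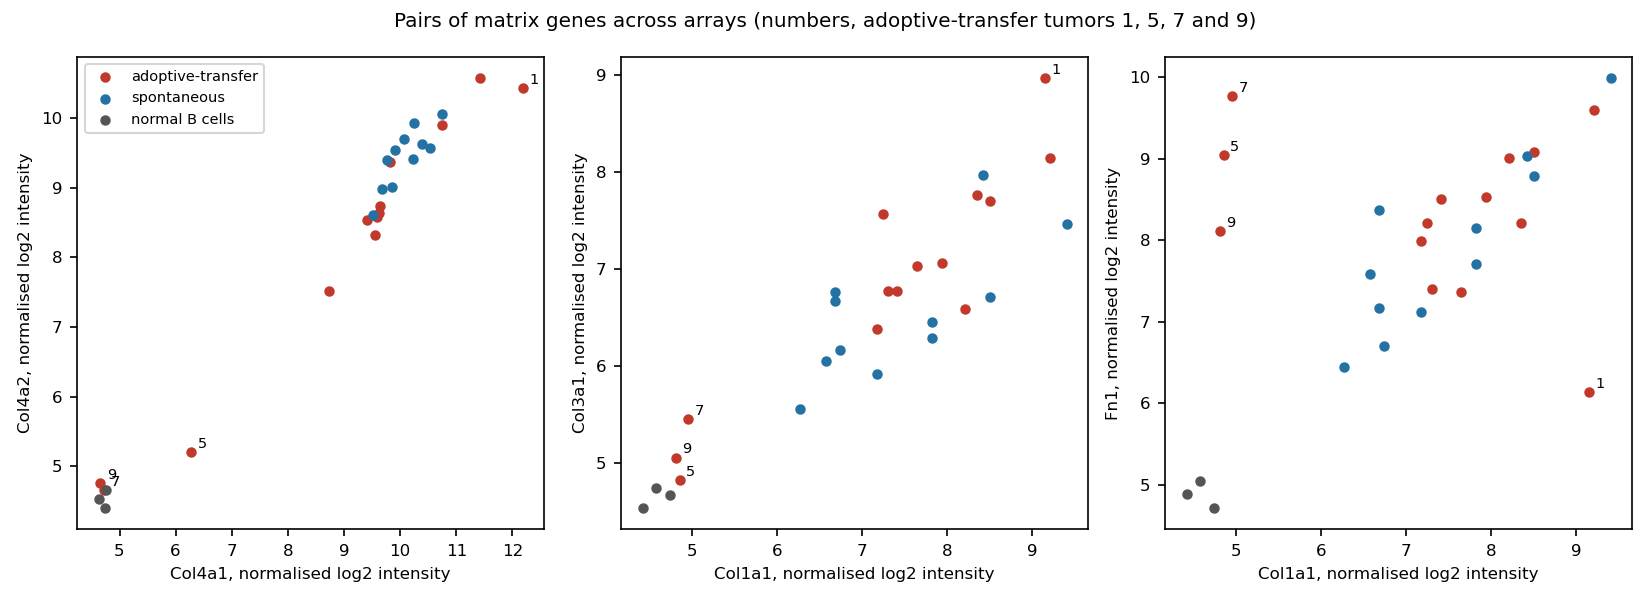
Normalised log2 intensity of Col4a2 against Col4a1, Col3a1 against Col1a1 and Fn1 against Col1a1, with 1 point per array for adoptive-transfer tumors (red), spontaneous tumors (blue) and normal B cells (grey). Adoptive-transfer tumors 5, 7 and 9 lie near the normal preparations for the collagens and high for Fn1 (8.11 to 9.76), and tumor 1 lies high for the collagens and low for Fn1 (6.14).

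Age at sampling was set against the members within each kind. Limma called 0 members in adoptive-transfer tumors, 0 in spontaneous tumors and 0 for the difference of the slopes, where 0%, 0% and 0.127% of all tested genes were called. At an unadjusted p under 0.05 there were 0, 2 and 0 members, where 9.29%, 11.4% and 14.9% of all tested genes passed. The 2 were Col4a1 (-0.64 ± 0.22 log2 units per 100 days in spontaneous tumors) and Thbs1 (-0.87 ± 0.32), both lower in older spontaneous tumors before adjustment. Slopes were negative for 16 of 36 members in adoptive-transfer tumors, where 51.9% of all tested genes had a negative slope, and for 28 of 36 in spontaneous tumors, where 50.5% did. The difference of the slopes, adoptive-transfer minus spontaneous, was negative for 18 of 36 members, where it was for 51.8% of all tested genes. These counts of slopes were not tested.

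Enzymes that process collagen chains were higher in the tumors, with 9 of 15 tested genes higher in adoptive-transfer, 8 of 15 higher in spontaneous tumors and 0 lower in either. Over all tested genes 19.9% and 18.5% were called higher and 16.7% and 18% lower. Serpinh1, the collagen chaperone HSP47, was at least 17.7-fold higher in adoptive-transfer (4.42 ± 0.82, adjusted p = 8.88e-05) and at least 25.3-fold higher in spontaneous tumors (4.94 ± 0.84, adjusted p = 2.95e-05), detected in all 25 tumors and in none of the normal preparations. Bmp1, a protease that trims procollagen, was 23.3-fold and 20.1-fold higher in adoptive-transfer and spontaneous tumors (4.54 ± 0.57 and 4.33 ± 0.58). P4ha2, a subunit of prolyl hydroxylase, was at least 6.43-fold and at least 5.86-fold higher (3.17 ± 0.42 and 3.04 ± 0.43). Its partner P4hb, which plasma cells also use as protein disulfide isomerase, was 7.79-fold and 7.78-fold higher (2.96 ± 0.20 and 2.96 ± 0.21).

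Of 14 tested matrix receptors, adoptive-transfer tumors had 4 higher and 1 lower and spontaneous tumors 7 higher and 2 lower. Among all tested genes the shares were 19.9% higher and 16.7% lower, and 18.5% and 18%, in the same order. The integrin gene Itgb5 was higher in adoptive-transfer (1.93 ± 0.26, adjusted p = 7.37e-07) and spontaneous tumors (1.81 ± 0.26, adjusted p = 2.88e-06). Cd44, the hyaluronan receptor, was higher too (1.48 ± 0.36 and 1.57 ± 0.37), while the integrin gene Itgav fell in both (-1.53 ± 0.37 and -1.61 ± 0.38).

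In the TGF-beta pathway, which drives matrix production in fibroblasts, adoptive-transfer tumors had 6 of 18 tested genes higher and 3 lower, and spontaneous tumors 5 higher and 3 lower. The shares over all tested genes were 19.9% higher and 16.7% lower, and 18.5% and 18%, so the lower counts lie near them. Ccn2, a target of the pathway, was 10.4-fold higher in adoptive-transfer (3.38 ± 0.94, adjusted p = 0.00525) and 17.6-fold higher in spontaneous tumors (4.14 ± 0.96, adjusted p = 0.00109). The ligand gene Tgfb1 (-2.07 ± 0.40 and -1.96 ± 0.41) and the receptor gene Tgfbr2 (-2.36 ± 0.36 and -2.23 ± 0.37) fell in both. Of 3 tested PDGF ligands, which stimulate mesenchymal cells, 1 was higher in each kind, Pdgfa (1.19 ± 0.47, adjusted p = 0.0487 in adoptive-transfer, and 1.44 ± 0.48, adjusted p = 0.019 in spontaneous tumors). No gene of these 4 lists was called between the tumor kinds, where 2.87% of all tested genes were.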

How the data were processed

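The 28 samples were hybridised to Illumina bead arrays. Per the file headers, the deposited table used gives every array a linear intensity per probe with its detection score, and the detection p was taken as 1 minus this deposited score. The authors also deposited log2 values, whose columns share a single distribution, and these served as an alternative. The submitters' processing notes name Partek. Samples were grouped by their labels.

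Intensities of 45281 probes were background corrected with neqc in limma 3.58.1 under R 4.3.3 (offset 16, tables read by data.table, version 1.17.8), quantile normalised and put on a log2 scale. GEO's platform annotation named 1 gene for 34885 probes, several for 18 and none for 10378. The 11804 genes detected (p under 0.05) on 3 or more arrays entered one limma fit with group means, and Benjamini-Hochberg p-values cover all of them, with 0.05 as threshold. Tests were two-sided. Age slopes were separate limma fits, and correlations used 1e+05 permutations. The fit was tested on simulated data. The number of arrays and signal over background limit the precision.

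Members and lists were chosen with earlier results of these data known. Values are given in full for 21 members, the 3 brightest tested members of each role group over the tumors, and up to 3 called genes are named per pathway list. P4hb and the other members given with values were chosen after their values were seen. Replicate numbers did not pair the samples: same-numbered deviations correlated at -0.072 to -0.057 (adoptive-transfer and normal), -0.047 to 0.014 (spontaneous and normal) and -0.080 to 0.215 (both tumor kinds). Alternatives changed the normalization, background, filter, probe choice, variance model, array weights, block and the arrays left out.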

Additional observations from a re-analysis of the deposited data

How the results depend on the processing

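The counts were repeated under 40 other settings, 28 of them leaving out 1 array each. In adoptive-transfer tumors the number of members higher was 17 to 27 under those 28 and 20 to 32 under the others. In spontaneous tumors it was 16 to 24 under those 28 and 18 to 32 under the others. No member was lower in either tumor kind under any of the 40 settings, and no called member changed sign. The 28 members with no normal preparation above background could hardly be called lower, so for them this was largely set beforehand. Of the members called, 17 of 23 in adoptive-transfer and 16 of 22 in spontaneous tumors were called without any 1 array. Array weights gave the highest counts (32 and 32) and called 7217, 7167 and 895 of all genes in the 3 comparisons, against 4318, 4304 and 339. Between the tumor kinds 0 members were called, without any 1 array too, except that 6 were called higher without adoptive-transfer tumors 5, 7 and 9, which was chosen after seeing the data. Over all genes that comparison gave 687 calls without these 3 tumors, 712 without adoptive-transfer tumors 1 and 5, 170 with the block and 140 with median scaling. Median scaling moved the share of higher calls to 33.3%, 32.2% and 32.9% (adoptive-transfer against normal, spontaneous against normal and between kinds), against 54.3%, 50.7% and 50.1%, and the median of all genes to -0.08 and -0.07, against 0.10 and 0.08, and left the members' counts at 23 and 22. With the replicate number as a block, 25 and 26 members were higher. In single settings that kept all arrays, the call of Lox and Pdgfra in adoptive-transfer tumors and of Col3a1 and Col6a1 in spontaneous tumors was lost without background correction (adjusted p = 0.0812, 0.0754, 0.0694 and 0.0839) and with the deposited log2 values (0.0757, 0.0722, 0.0665 and 0.0786), and that of Fbln1 in adoptive-transfer tumors without background correction (0.0506). An offset of 50 lost the calls of Lox (0.051) and Pdgfra (0.0536) in adoptive-transfer tumors and of Col6a1 (0.0585) in spontaneous tumors. The spontaneous call of Col15a1 was lost without background correction (0.145), with the deposited log2 values (0.141), with an offset of 50 (0.107) and with no filter on dim genes (0.0736). That of Tnc was lost with the deposited log2 values (0.0503), with an offset of 50 (0.0646) and with no filter (0.0548), and that of Mfap5 with the replicate number as a block (0.0512). The cause was not tested. The median log2 difference of the members was 1.01 and 0.75 without background correction, 1.06 and 0.78 with the deposited log2 values, 1.44 and 1.09 with an offset of 50 and 1.49 and 1.37 with the mean of all detected probes, against 2.15 in adoptive-transfer and 1.58 in spontaneous tumors. Without background correction the median SD of the members was 0.66 in adoptive-transfer and 0.37 in spontaneous tumors. It was 0.79 in adoptive-transfer tumors without tumors 5, 7 and 9. The SD over all tested genes under these settings is not given here. With the 2 tumors farthest on the first gene left out, 4 adoptive-transfer and 1 spontaneous relations passed, against 5 and 6 of 10 each. The 4 include Dcn with Lum, which was not among the 5. Col1a1 with Col1a2 and Col1a1 with Col3a1 no longer passed in adoptive-transfer tumors. With all 14 adoptive-transfer tumors, as planned, leaving out the 2 farthest left 6 and 1, against 7 and 7. Of 25 further probes of the members that passed the detection filter, 22 had the sign of the probe used in adoptive-transfer and 23 in spontaneous tumors. Genes near background, such as Tagln, Col5a2 and Pdgfrb, have only a bound in most samples.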
